A study of Phrynocephalus vlangalii with 2 samples.

Results

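Hypoxia-inducible factors and the proteins that control them form the oxygen-sensing system of animal cells. This account covers the rows of the deposited expression table whose annotation text names a hypoxia-inducible factor, endothelial PAS domain protein, von Hippel-Lindau protein or aryl hydrocarbon receptor nuclear translocator, leaving out texts of the translocator-like clock protein. The rule found 14 assembled genes, here called copies, of 58458 in the table, under 6 annotation texts of 4819. The rule itself reads the annotation text and no measured value. All 14 copies had at least 10 reads in the 2 libraries together. Of these, 10 copies had reads in both libraries, and 4 had 0 reads in the Maqu library and are given apart as possibly not lizard.

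The study, whose title names adaptation to high altitude, compared adult toad-headed lizards (Phrynocephalus vlangalii) of the populations Madoi and Maqu, with 1 RNA-seq library each. Each library is labelled with the same 4 tissues, liver, lung, heart and muscle. The labels give no treatment, number of animals or altitude for either population. The deposited estimated reads summed to 63636521 in Madoi and 66401051 in Maqu. Ratios are log2 of Madoi over Maqu reads, so that a positive value means higher in Madoi, and each has a 95% counting interval. With 1 library per population no ratio has a replicate check, no test was made, and each ratio compares 2 libraries and not the populations. A copy was called higher or lower when it differed at least 2-fold with an interval that excluded equality.

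In well-oxygenated cells, prolyl hydroxylases use oxygen to mark the alpha subunits of hypoxia-inducible factors, and the von Hippel-Lindau protein then binds the marked subunit and directs its ubiquitination and destruction. When oxygen is short the marking slows, the alpha subunit accumulates, pairs with its beta subunit (the aryl hydrocarbon receptor nuclear translocator) and switches on genes of glucose use, vessel growth and red cell supply. Much of this control acts on protein, which RNA reads do not measure.

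Among the 10 copies with Maqu reads, hypoxia-inducible factor 2 alpha and the longest prolyl hydroxylase copy had more reads in Madoi by less than 2-fold. So did the longest copy under the text of the beta subunit, though its other fields name another function. Hypoxia-inducible factor 3 alpha had fewer by less than 2-fold, and the von Hippel-Lindau protein was 2.21-fold lower in Madoi. In libraries of mixed tissue, fewer cells of a type and less RNA per cell cannot be told apart. The von Hippel-Lindau copy was the only call among these 10 copies (1 lower, 0 higher). Of 48099 assembled genes with Maqu reads, 13.0% were called lower and 13.1% higher. With only 10 copies, neither 1 lower nor 0 higher is read as a departure from these shares. The median ratio of those 48099 was -0.01. Over all 14 copies, 4 were called higher, 1 lower and 9 neither, beside 28.5% higher and 10.7% lower of 58439 assembled genes with at least 10 reads. The 4 higher are the copies with 0 Maqu reads. The rule calls every such row with at least 10 reads higher, and the 28.5% includes such rows, so this count restates the zeros.

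**Figure D1:**
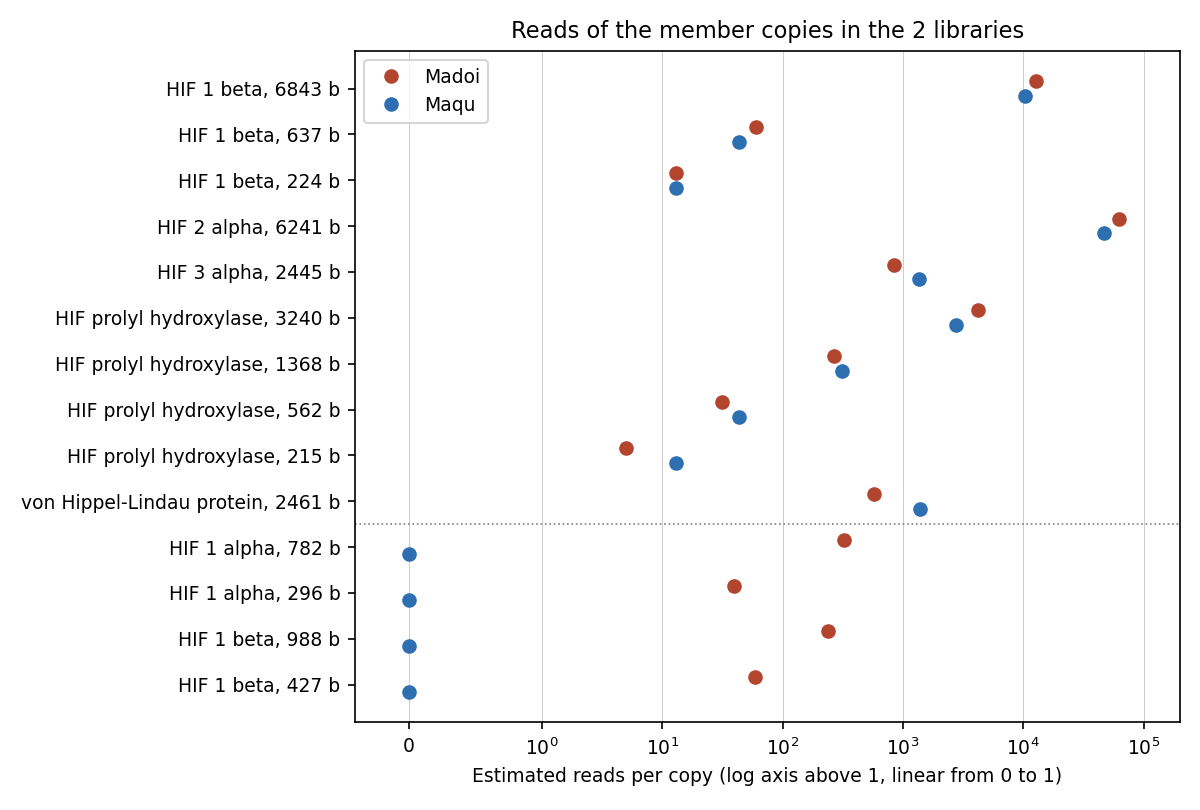
Estimated reads of each of the 14 copies in the Madoi (red) and Maqu (blue) libraries, on a log axis above 1 read, with the length of each copy in bases (b). The 4 copies under the dotted line have 0 Maqu reads and between 39.2 and 324 Madoi reads, while hypoxia-inducible factor 2 alpha stands at the far right with 62108 and 46856 reads.

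The alpha subunits differed widely in level. Hypoxia-inducible factor 2 alpha, also called endothelial PAS domain protein 1, was first described in vessel endothelium and is known in mammals for driving erythropoietin production. Its single copy of 6241 bases had 62108 reads in Madoi against 46856 in Maqu. The ratio was 0.52 (0.50 to 0.53), a 1.43-fold difference, and 60.1% of the 4819 annotation texts lay nearer to 0. On the authors' RPKM scale, a level per length and sequencing depth, its level was 149 in Madoi and 109 in Maqu, the highest of the 6 texts in both libraries. It ranked 333 of 4819 texts in Madoi and 390 in Maqu by summed RPKM.

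Hypoxia-inducible factor 3 alpha, of which some mammalian splice forms restrain the other alpha subunits, ran the other way. Its copy of 2445 bases, assembled as 6 transcripts, had 847 reads in Madoi against 1348 in Maqu. The ratio was -0.56 (-0.69 to -0.44), a 1.47-fold difference toward Maqu. Its RPKM level was 6.54 in Madoi and 9.21 in Maqu, so that hypoxia-inducible factor 2 alpha stood 22.9 times as high per length in Madoi and 11.8 times as high in Maqu. A comparison of 2 genes within a library does not depend on how the libraries are scaled: between the libraries, the ratio of hypoxia-inducible factor 2 alpha reads to 3 alpha reads differed 2.11-fold, with a log2 difference of 1.08 and a counting interval from 0.95 to 1.20. The 6 transcripts of the copy were given as a single value, so the splice forms were not compared.

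Hypoxia-inducible factor 1 alpha, the broadly expressed alpha subunit, had 2 copies, and both had 0 Maqu reads. The copy of 782 bases had 324 reads in Madoi against 0 in Maqu. Against 3 counts, taken as the limit for Maqu, it was 117-fold higher in Madoi, and the interval began at 94.3-fold. The copy of 296 bases had 39.2 reads in Madoi against 0 in Maqu, 14.03-fold higher against that limit, with an interval that began at 10.9-fold. The fields beside the texts differ: the shorter copy carries 9 gene ontology terms, among them response to hypoxia, and the longer copy carries 0 and has no protein name or KOG class (KOG is a catalogue of conserved gene families). A count of 0 in Maqu allows up to 0.058 RPKM for the longer copy and 0.153 for the shorter, against 6.79 and 2.62 listed in Madoi. No other row carried this text, so a level of the lizard's own factor 1 alpha in either library cannot be read from these rows.

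**Figure D2:**
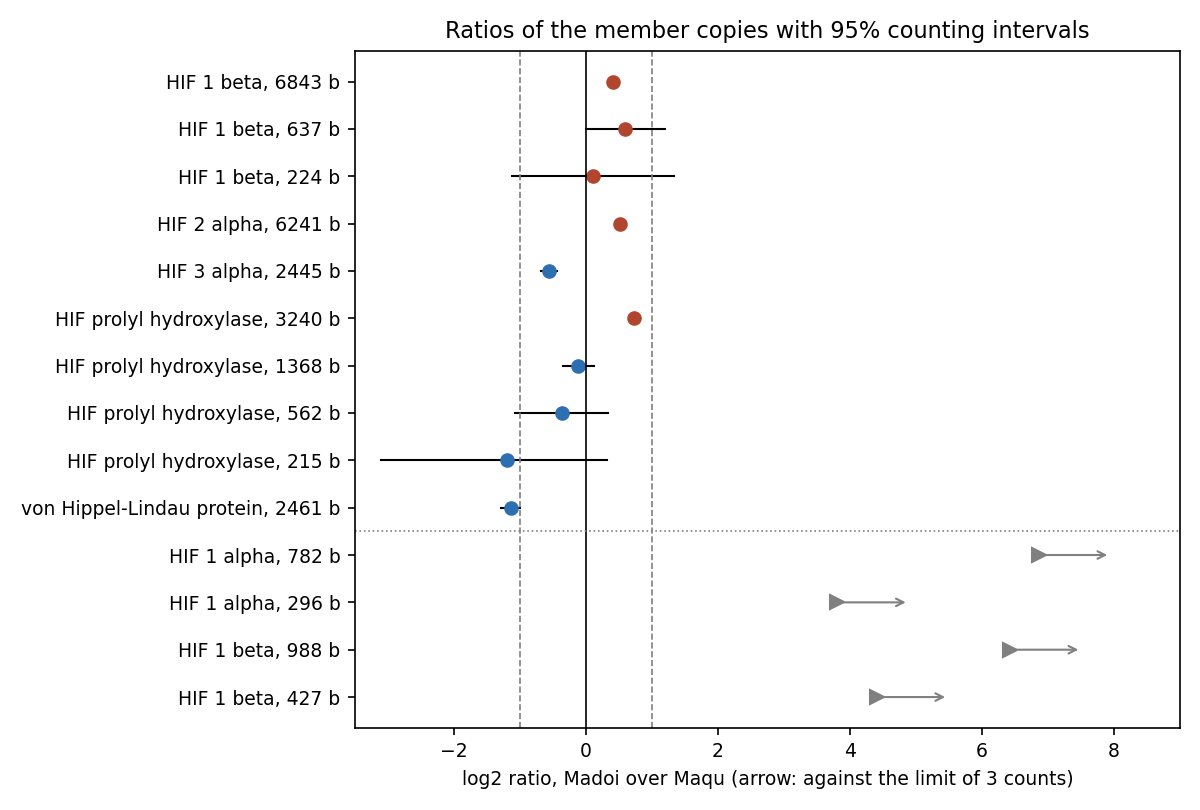
Log2 ratio of Madoi over Maqu reads for each copy, with horizontal lines for 95% counting intervals and dashed lines at 2-fold. Red points lie above 0 and blue points below it. Triangles with arrows mark the 4 copies with 0 Maqu reads, drawn at their ratio against the limit of 3 counts. The von Hippel-Lindau copy at -1.14 lies beyond the 2-fold line, and the other 9 copies with Maqu reads either lie inside it or, as the hydroxylase copy of 215 bases, have an interval that spans 0.

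The beta subunit, common partner of all alpha subunits and of the aryl hydrocarbon receptor, had 5 copies under the text hypoxia-inducible factor 1 beta. The copy of 6843 bases, assembled as 8 transcripts, had 12656 reads in Madoi against 10250 in Maqu, a ratio of 0.41 (0.38 to 0.45). It held 97.2% of the text's reads in Madoi against 99.5% in Maqu. The other fields of this row name another function: its KOG class is cell cycle control and its 4 gene ontology terms are cytoplasm, nucleus, apoptosis and induction of apoptosis. Which field describes the transcript was not tested, and the value of the text as a whole rests on this row.

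The copies of 637 and 224 bases carry terms that go with the beta subunit: aryl hydrocarbon receptor binding, response to hypoxia and the KOG class of transcription. The copy of 637 bases had 60 reads in Madoi against 43 in Maqu, with an interval from 0.0017 to 1.19 on the log2 scale, and the copy of 224 bases had 13 in each. Their identifiers share an assembly component number, so they may be parts of one transcript. Summed, they had 73 reads in Madoi against 56 in Maqu, so that the log2 ratio was 0.49, with an interval from -0.03 to 1.02. No difference of their sum was detectable at this depth. Their summed RPKM level was 2.87 in Madoi and 2.33 in Maqu, against 35.1 and 24.5 for the row of 6843 bases.

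The last 2 copies of the beta subunit had 0 Maqu reads. The copy of 988 bases had 239 reads in Madoi, and that of 427 bases had 59. Against the limit of counts taken for Maqu above, the longer was 86.0-fold higher in Madoi, with an interval that began at 69.4-fold. The shorter was 21.2-fold higher against that limit, with an interval that began at 16.7-fold. Both list a gene ontology term of the open tracheal system, the airway of insects, beside dendrite morphogenesis and brain development. An open tracheal term stood on 37 assembled genes of the table, and 34 of them, 91.9%, had 0 Maqu reads, against 17.7% of all 58458 assembled genes and 20.2% of the 14472 with an annotation text. The 34 include the 2 copies described here. Of the 14 copies, 4 had 0 Maqu reads (28.6%), and 0 of 14 had 0 Madoi reads. The whole table leaned the same way: of 58458 assembled genes, 10345 had 0 Maqu reads and 303 had 0 Madoi reads.

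**Figure D3:**
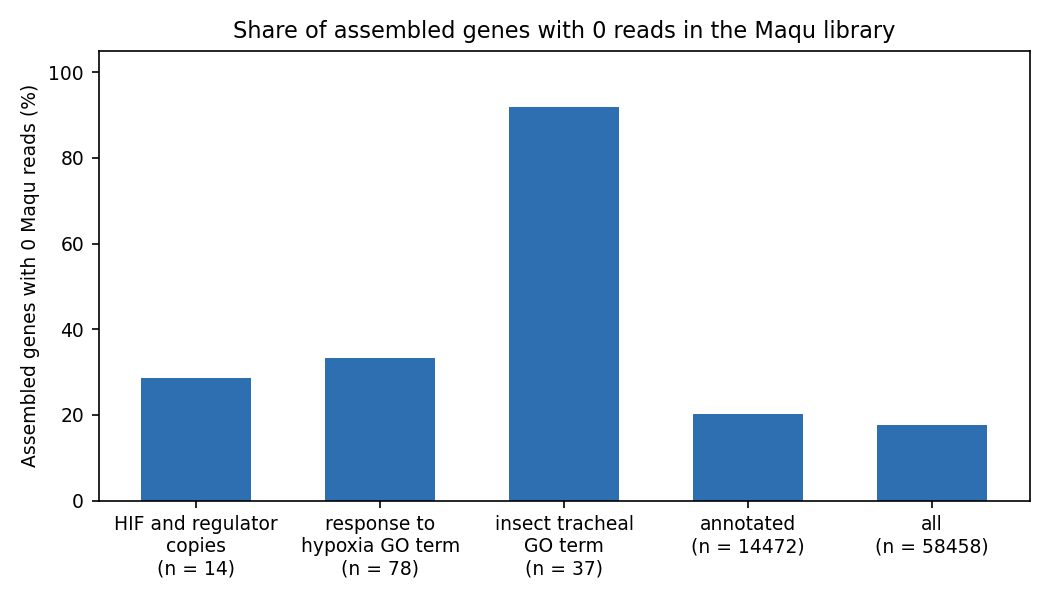
Share of assembled genes with 0 reads in the Maqu library, in percent, for the 14 copies described here, for genes with the term response to hypoxia, for genes with an insect tracheal term, for annotated genes and for all. The bar of the insect tracheal terms stands at 91.9% and that of all assembled genes at 17.7%.

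The prolyl hydroxylases are the oxygen sensors themselves, and in mammals some of their own genes are targets of the factors they mark. A total of 4 copies shared the text, and they did not move alike. The copy of 3240 bases had 4220 reads in Madoi against 2758 in Maqu, a ratio of 0.72 (0.65 to 0.79), or 1.65-fold, and held 93.3% of the reads of the text in Madoi and 88.2% in Maqu. Its gene ontology terms include response to hypoxia and oxygen homeostasis; the terms of the other copies were empty or not used here.

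The 3 shorter hydroxylase copies had no ratio above 0. The copy of 1368 bases had 267 reads in Madoi against 312 in Maqu, with a ratio of -0.11 (-0.36 to 0.13). The copy of 562 bases had 31.0 reads in Madoi against 43 in Maqu, and that of 215 bases had 5 in Madoi and 13 in Maqu, and both intervals spanned 0. Together these 3 copies had 303 reads in Madoi against 368 in Maqu, so that the log2 ratio was -0.17, with an interval from -0.39 to 0.05. Between the 2 longest copies, which share both libraries and the scaling, the log2 difference was 0.84 (0.59 to 1.08), a 1.79-fold change in their proportion. Whether the copies are the separate hydroxylase genes known from other vertebrates or pieces of the same one is not given by the text.

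The von Hippel-Lindau protein, the substrate receptor that recognises hydroxylated alpha subunits, was the one copy called lower. Its copy of 2461 bases, assembled as 2 transcripts, had 575 reads in Madoi against 1372 in Maqu. The ratio was -1.14 (-1.29 to -1.003), 2.21-fold lower in Madoi, and 84.6% of the annotation texts lay nearer to 0. Its RPKM level was 3.57 in Madoi and 8.31 in Maqu, the lowest in each library among the 5 texts read in both. In Madoi the longest hydroxylase copy stood 5.54 times as high per length as this copy, and in Maqu 1.498 times as high, and by reads the proportion of the 2 differed 3.65-fold between the libraries (log2 1.87, 1.71 to 2.02). The proportion of hypoxia-inducible factor 2 alpha to the von Hippel-Lindau copy differed 3.16-fold (log2 1.66, 1.52 to 1.80).

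All 15 pairs among the 6 copies with at least 500 reads differed in their between-library ratio with a counting interval that excluded 0. In descending order of ratio these began with the hydroxylase copy of 3240 bases, factor 2 alpha and the 6843-base row under the beta subunit text. The hydroxylase copy of 1368 bases, factor 3 alpha and the von Hippel-Lindau protein followed in that order. The nearest neighbours in that order, which is by reads, were factor 2 alpha and the 6843-base row, with a log2 difference of 0.10 (0.06 to 0.14). On the authors' RPKM scale factor 2 alpha stood 4.26 times as high as that row in Madoi and 4.44 times in Maqu. These 2 therefore swap places on that scale, and their order depends on the measure. Animal-to-animal spread is not part of the counting intervals, so a pair may lie within it.

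**Figure D4:**
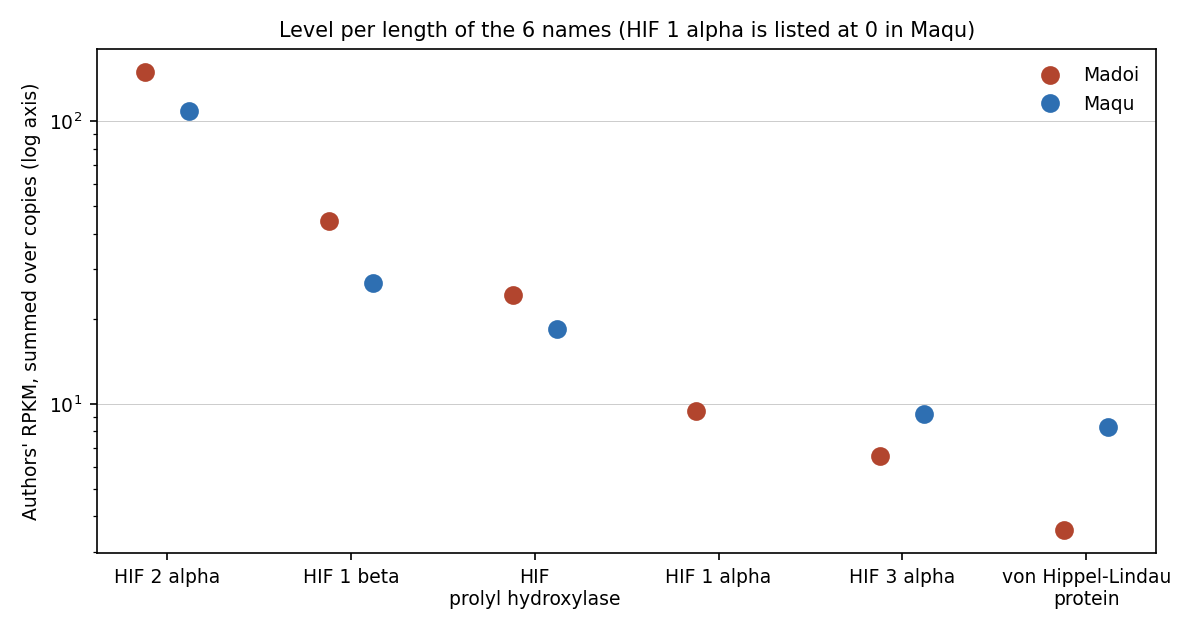
Level per length of the 6 annotation texts, as the authors' RPKM summed over copies, on a log axis, with Madoi in red and Maqu in blue. Hypoxia-inducible factor 2 alpha is highest in both libraries (149 and 109), and the von Hippel-Lindau protein has the widest gap between the libraries among texts listed above 0 in both (3.57 and 8.31).

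In the authors' deposited table, 1 of the 14 copies was marked significant, the 782-base copy of factor 1 alpha, with an authors' p of 0.0125 and FDR of 0.224. That mark was held by 10.4% of all assembled genes, 9.23% higher in Madoi and 1.20% lower, and in every row it equals an authors' p under 0.05 with at least a 2-fold difference and does not use the FDR. In the authors' deposited table the von Hippel-Lindau copy had a log2 fold change of -1.22 and p of 0.128, and factor 2 alpha 0.46 and 0.0611. Their table gave the 6843-base row a log2 fold change of 0.52, against 0.41 from its reads.

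The libraries also differed, to unlike extents, in the markers of the labelled tissues. Markers of pancreas and red cells, which the labels do not name, were compared as well. The 5 liver markers with a matched text summed to 423 RPKM in Madoi and 956 in Maqu, with 1 called higher and 2 lower, and the 4 lung markers to 409 and 848, with 0 higher and 2 lower. The 4 heart markers summed to 88.2 RPKM in Madoi and 78.9 in Maqu, with 2 higher and 0 lower, and the 4 skeletal muscle markers to 3310 and 3057, with 0 called. The 5 pancreas markers summed to 71.1 RPKM in Madoi and 261 in Maqu, with 1 higher and 3 lower, and the 3 red cell markers to 340 and 459, with 0 called. The higher pancreas marker was chymotrypsin, with 2890 reads in Madoi against 991 in Maqu (1.65), and it turned to -4.58 without copies at 0 in one library or with a log2 ratio beyond 5. Chymotrypsin C stood at -5.10, and at -0.23 without such copies. No copy of pancreatic elastase I or carboxypeptidase A1 was left without them, while carboxypeptidase B stood at -4.82 either way. Of the 3 pancreas texts left, 0 were called higher and 2 lower. The pancreas sums include copies at 0 in one library or with a log2 ratio beyond 5. Chymotrypsin gave 54.7 and pancreatic elastase I 10.6 of the 71.1 RPKM in Madoi. In Maqu these gave 18.8 and 17.4 of the 261. Carboxypeptidase A1, a pancreas marker, had 8 reads in Madoi against 7651 in Maqu, and the other 24 markers had more in Madoi than that; the part of tissue makeup in the ratios was not tested.

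Around the hydroxylases and the von Hippel-Lindau protein, the genes that act on the stability of the factors had ratios between -0.32 and 0.82. Of 14 texts (15 of 17 symbols matched), 0 were called higher and 0 lower, beside 11.6% higher and 6.33% lower of all 4819 texts, and the median ratio was 0.27 beside 0.12 over all texts. The list median was 0.19 without copies at 0 in one library or with a log2 ratio beyond 5. The other parts of the von Hippel-Lindau ubiquitin ligase did not follow its receptor below the 2-fold line. Cullin 2, the scaffold, stood at 0.25, elongin B (transcription elongation factor B, polypeptide 2) at 0.30 and RING-box protein 1 at 0.49, while elongin C (polypeptide 1) stood at -0.25. The highest ratios were those of small ubiquitin-related modifier at 0.82 and ubiquitin-like protein Nedd8, which activates cullins, at 0.53, but without copies at 0 in one library or with a log2 ratio beyond 5 they stood at 0.35 and -0.19. RING-box protein 1 stood at -0.09 and elongin B at 0.26 without such copies. The lowest was ubiquitin carboxyl-terminal hydrolase 20/33, whose mammalian members remove ubiquitin from the factors or their regulators, at -0.32.

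Other bHLH-PAS proteins, their coactivators and period circadian protein gave 2 lower and 0 higher of 8 texts. Of all 4819 texts, 11.6% were called higher and 6.33% lower. With only 8 texts, neither count is read as a departure from these shares. The median was -0.0026 beside 0.12 over all texts. Both lower ones belong to the activating arm of the clock: aryl hydrocarbon receptor nuclear translocator-like protein 1 had 91 reads in Madoi against 607 in Maqu (-2.62), and circadian locomoter output cycles kaput protein 239 against 632 (-1.29). Neuronal PAS domain-containing protein 2, which can stand in for the kaput protein in mammals, was on the other side at 0.85. The text period circadian protein had 18712 reads in Madoi against 20862 in Maqu (-0.05). The aryl hydrocarbon receptor, the other partner of the beta subunit, stood at 0.42 and nuclear receptor coactivator 3 at 0.47.

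The 17 texts of coactivators, upstream kinases and translation regulators had a median of -0.0011. Of these, 1 was called higher and 0 lower, beside 11.6% higher and 6.33% lower of all texts. The higher one was the cap-binding translation initiation factor eIF-4E at 1.13. It stood at 0.29 without copies at 0 in one library or with a log2 ratio beyond 5, and the list median at -0.03. The kinase mTOR (FKBP12-rapamycin complex-associated protein) stood at 0.75, and at 0.33 without such copies, while its partner raptor stood at -0.52 and the transcription factor STAT3 at -0.49. The coactivator text E1A/CREB-binding protein, whose proteins the factors recruit to their targets, had 14599 reads in Madoi against 15768 in Maqu. Of 9 texts of other 2-oxoglutarate-dependent oxygenases, enzymes of the hydroxylases' chemistry, 0 were called in either direction, and the range was -0.34 for the collagen enzyme prolyl 4-hydroxylase to 0.44 for histone demethylase JMJD3. Next to these ends stood the RNA demethylase alkB homolog 5 at -0.22 and jumonji domain-containing protein 1 at 0.33, or 0.17 without such copies.

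**Figure D5:**
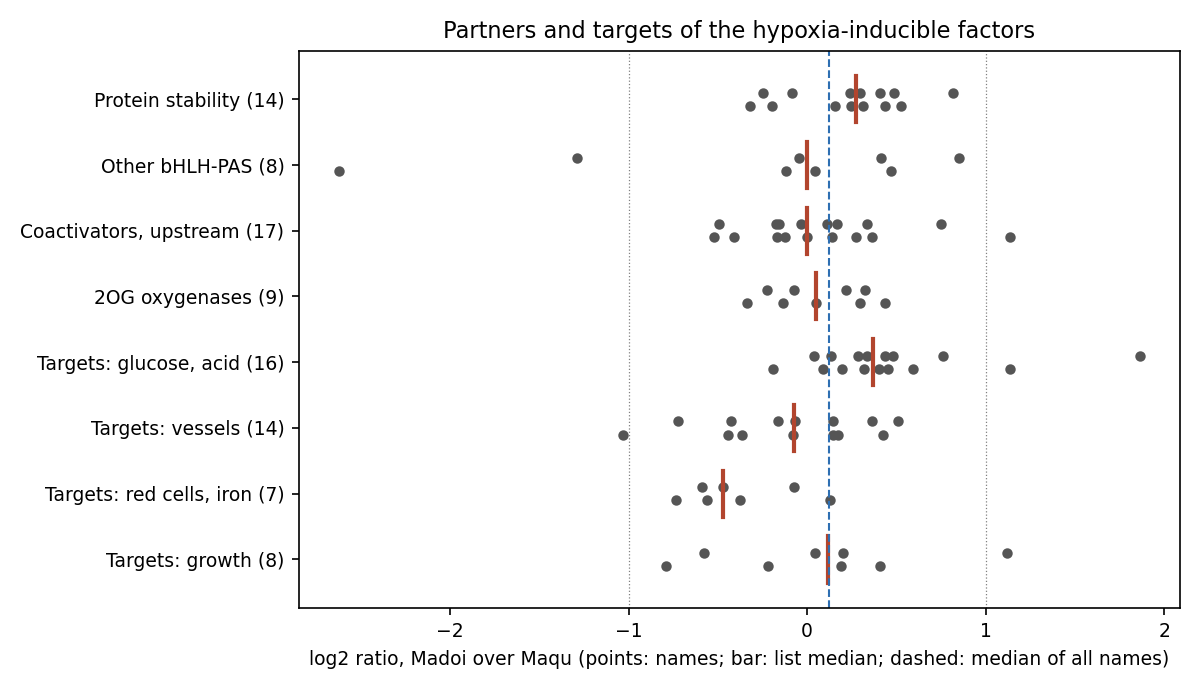
Log2 ratios of Madoi over Maqu for the annotation texts of 8 lists of partners and targets, with the number of texts in brackets. Each grey point is a text, each red bar the median of a list, and the dashed line the median of all 4819 texts at 0.12. The glucose targets have the highest median (0.37) and the red cell and iron targets the lowest (-0.47).

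The known targets of the factors did not share a direction. Across the 4 target lists, 45 texts gave 3 higher and 1 lower, beside 11.6% higher and 6.33% lower of all texts, with a median of 0.14. Targets of glucose use and acid handling had a median of 0.37 over 16 texts, beside 0.12 over all texts. Of these 16, 15 lay above 0, with 2 higher and 0 lower. The share of all texts above 0 was not computed. The list median was 0.31 without copies at 0 in one library or with a log2 ratio beyond 5. That filter was not applied to the median of all texts. The glucose transporter solute carrier family 2, member 1, had 3185 reads in Madoi against 1563 in Maqu (1.14, and 1.05 without such copies). Pyruvate kinase, the last enzyme of glycolysis, had 6166 reads in Madoi against 1829 in Maqu (1.86), and turned to -0.27 without such a copy. The lactate exporter solute carrier family 16, member 3, had the lowest ratio at -0.19, and glucose transporter member 3 stood at 0.04.

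Targets of red cells and iron lay on the other side, with a median of -0.47 over 7 texts, 6 of them below 0, and 0 called in either direction. Their median was -0.56 without copies at 0 in one library or with a log2 ratio beyond 5. The haem enzyme 5-aminolevulinate synthase stood at -0.73 and the transferrin receptor, which takes up iron, at -0.59, and ferritin heavy chain, the iron store, at 0.13 and cytochrome b reductase 1 at -0.08. The erythropoietin receptor had 3313 reads in Madoi against 5275 in Maqu. The list holds 2 of the 3 red cell markers whose sum is given above. Vessel targets had a median of -0.07 over 14 texts, and -0.12 without such copies, with 0 higher and 1 lower. The lower one, the collagen cross-linking enzyme protein-lysine 6-oxidase, had 3255 reads in Madoi against 7175 in Maqu (-1.03). The vessel-destabilising angiopoietin 2 stood at -0.72, its counterpart angiopoietin 1 at 0.51 and angiopoietin-like 4 at 0.42. Targets of survival, growth and feedback had a median of 0.12 over 8 texts, the same without such copies, with 1 higher, 0 lower. That one was the repressor class B basic helix-loop-helix protein 2, with 3638 reads in Madoi against 1805 in Maqu (1.12). Insulin-like growth factor-binding protein 3 stood at -0.79, cyclin-dependent kinase inhibitor 1A at -0.58 and transforming growth factor, beta, at 0.41.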

How the data were processed

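RNA of the 4 tissues was extracted with a Promega kit and made into Illumina libraries, per the labels' protocols, and assembled with Trinity and annotated with BLAST, per the series' design text. The aligner, the counter and the authors' test were not given in the sources used here. Per the file headers, the authors' count columns hold one value per assembled gene, with fractions, and were taken as estimated counts. RPKM columns are the authors' own, and the length behind them is not stated. Their deposited log2 fold change equalled the log2 ratio of those RPKM values, within 0.01, in all 33511 rows compared. Those were the rows above a minimum RPKM in both libraries. The p-values deposited by the authors compare 2 single libraries.

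Expected counts were rounded and scaled by TMM over the whole table (edgeR 4.0.16; factors 0.983 for Madoi and 1.02 for Maqu). To each count 0.5 reads, in proportion to library size, were added before the ratio. Intervals of ratios were exact (Clopper-Pearson, 95%), and those between 2 copies were normal approximations for the log odds ratio of their reads (scipy 1.17.1). They, and the limit of 3 counts per library for a 0, cover counting error only. Calls needed 10 reads in the 2 libraries together, a 2-fold difference and an interval excluding 1. The rule was run on simulated reads with counting error only, which cannot show how calls hold against spread between animals or tissues. The alternatives were library totals, median-of-ratios size factors (DESeq2 1.42.0), a pseudocount of 5, other filters, a 4-fold threshold, no interval, the highest copy, and sums without copies at 0 or with a log2 ratio beyond 5. List texts were matched to symbols by hand, some covering a family, and copies of a text were summed. Named list genes were the 2 highest and 2 lowest ratios per list with at least 50 reads together and 10 in each library; genes outside that rule were chosen after their values were seen. Members and lists were chosen with earlier results of these data known. GO fields of 220 rows were not used here.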

Additional observations from a re-analysis of the deposited data

How the results depend on the processing

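Of 160 recomputed values, 8 moved out of their range and 0 were labelled reversed. The range was the counting interval for ratios, a range over the texts for list medians, and a set range for counts of calls. Only values whose range excluded 0 could be labelled reversed, and some list medians near 0 did change sign. The median of the other oxygenases went from 0.05 to -0.0011 with library totals. Copies with 0 Maqu reads had no upper end to their range. With scaling by library total, hypoxia-inducible factor 2 alpha stood at 0.47 and 1 beta at 0.40. With the highest copy in place of the sum, the prolyl hydroxylase stood at 0.72. Without the row of cell cycle class (chosen after seeing the data), 1 beta stood at 2.83, since the copies with 0 Maqu reads then weigh more. Copies called lower numbered 0 at a 4-fold threshold and 2 with no counting interval, which adds the 215-base hydroxylase copy. Factor 1 alpha has no value without copies at 0. No paired analysis was possible because each population has 1 library, and for the same reason no replicate could be left out. Counting depth limits the 4 copies with Maqu reads that have 103 reads or fewer in both libraries together, whose intervals are over 1 wide on the log2 scale.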

Other observations

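Beyond the 14 copies, 72 assembled genes carried the gene ontology term response to hypoxia, with 28 higher and 6 lower in Madoi and a median log2 ratio of 0.43, beside 28.5% higher and 10.7% lower of all assembled genes with at least 10 reads. With Maqu reads there were 47, with 3 higher and 6 lower and a median of -0.01, beside 13.1% higher and 13.0% lower of all assembled genes with Maqu reads. Among these, a copy of 5-aminolevulinate synthase had the most reads of the called rows, 19612 in Madoi against 43567 in Maqu (-1.04, called lower). The 3 copies of that text together stood at -0.73 and were not called. Apoptotic protease-activating factor, which assembles the caspase-activating apoptosome, had 197 reads in Madoi against 468 in Maqu (-1.14). Of the 6 lower, 3 were copies of inositol 1,4,5-triphosphate receptors, the calcium channels of the endoplasmic reticulum: 1 copy of type 1 with 8 reads in Madoi against 21 in Maqu, and copies of type 2 with 19 against 63 and with 4 against 15. A ryanodine receptor 2 copy had 80 reads in Madoi against 187 in Maqu (-1.11). Of the 3 higher, a row under E1A/CREB-binding protein had 522 reads in Madoi against 2 in Maqu (7.81), while the 14 rows of that text together had 14599 in Madoi against 15768 in Maqu. A row with no annotation text had 2641 reads in Madoi against 1 in Maqu (10.87). The last, src homology 2 domain-containing transforming protein C, had 39 in Madoi against 12 in Maqu (1.77). These genes were named after their values were seen.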
